A study of Mus musculus with 8 samples.

Results

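The hearts of db/db and db/m mice were compared at 4 weeks of age, before the study counts db/db mice as hyperglycemic. The comparison was defined by genotype and age on the labels and rested on 2 of the 8 libraries, 1 per genotype. The db allele is a mutation of Lepr, the leptin receptor gene, and db/db mice carry it on both chromosomes, while db/m mice (genotype db/+) carry it on 1 and are the controls, so every mouse of the series had at least 1 mutated copy. All mice were untreated males, with the strain given on the labels as C57BL/KsJ, and the study sequenced hearts at 4, 12, 24 and 32 weeks to follow the diabetic heart over time. The tissue was the flash-frozen heart, with no chamber named. Whether a library held 1 heart or a pool is not stated, although the study assigned more db/db mice to sequencing than there are db/db libraries, and 1 library per genotype gives no measure of the spread between mice of the same age and genotype.

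The db/db mouse cannot respond to leptin, the satiety hormone of fat cells, and becomes obese and then diabetic. The heart draws most of its energy from fatty acids burned in mitochondria, and it switches toward this fuel in the weeks after birth as its muscle cells stop dividing. Programs of fuel use, contraction, cell division, inflammation and hormone response were examined as gene lists. Other lists covered tissues that a dissected heart can carry along, such as atrium, valve, skeletal muscle and fat. The lists were chosen with earlier results of these data known, and those for pituitary and neuroendocrine cells were written after their values were seen.

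The db/m library held 14445436 counts and the db/db library 21836468, against 19246305 to 26676268 in the 6 older libraries. Levels are CPM, counts relative to the library's total, after scaling by the trimmed mean of M values (TMM), with factors of 1.15 (db/m) and 1.00 (db/db) for the 4-week pair. Differences are log2 of db/db over db/m with a prior count of 2, and folds have exact 95% intervals that cover counting error only. A gene was called higher or lower where at least 50 counts lay in the pair, the fold was at least 1.5 and the interval excluded no difference. Of 13591 genes with enough counts, 1290 (9.49%) were higher in db/db and 1235 (9.09%) were lower. The same rule called 18.6% of genes at 4 weeks, 10.8% at 12 weeks, 21.9% at 24 weeks and 20.4% at 32 weeks. The SD of the differences over tested genes was 0.67, 0.44, 0.67 and 0.61 at these ages, so the youngest pair was not set apart by its spread from the pair at 24 weeks. The split depended on scaling. With total counts alone, which shift all differences by -0.19, 655 genes were higher and 2060 lower. Scaled to 18 myocardial genes, a set chosen after seeing the data, 473 were higher and 2787 lower. Counts of list members under these scalings are to be read beside these numbers of all 13591 genes.

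The size of the 4-week difference exceeded that of each of the 3 older pairs for 28.1% of tested genes. Of the called genes 1564 (11.5% of those tested) met this condition, 874 of them higher and 690 lower in db/db. In edgeR's quasi-likelihood fit, with age as a block and a common effect of genotype at the older ages, 1 of 15237 genes (0.00656%) passed an adjusted p of 0.05 for the 4-week effect, and 966 had an unadjusted p under 0.05. For the 4-week effect minus the older effect 0 genes (0%) passed by edgeR, with 613 at an unadjusted p under 0.05, while the Wald test of DESeq2 called 37 and 18 genes in the 2 comparisons.

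The db/m library was the more distant of the pair from the older hearts. Over all tested genes, the db/m library lay outside the range of the 6 older libraries for 43.0% and the db/db library for 20.8%. Of the 1290 genes higher in db/db, 849 were lower in db/m at 4 weeks than in all 6 older libraries and 280 were higher in db/db than in all 6. Of the 1235 lower genes, 785 were above all older libraries in db/m and 242 below them in db/db. In db/m, 83 genes stood at least 4-fold above each of the other 7 libraries, against 6 in db/db at 4 weeks and 0 to 48 in the older libraries. The plots of levels and of library positions show both features.

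**Figure D1:**
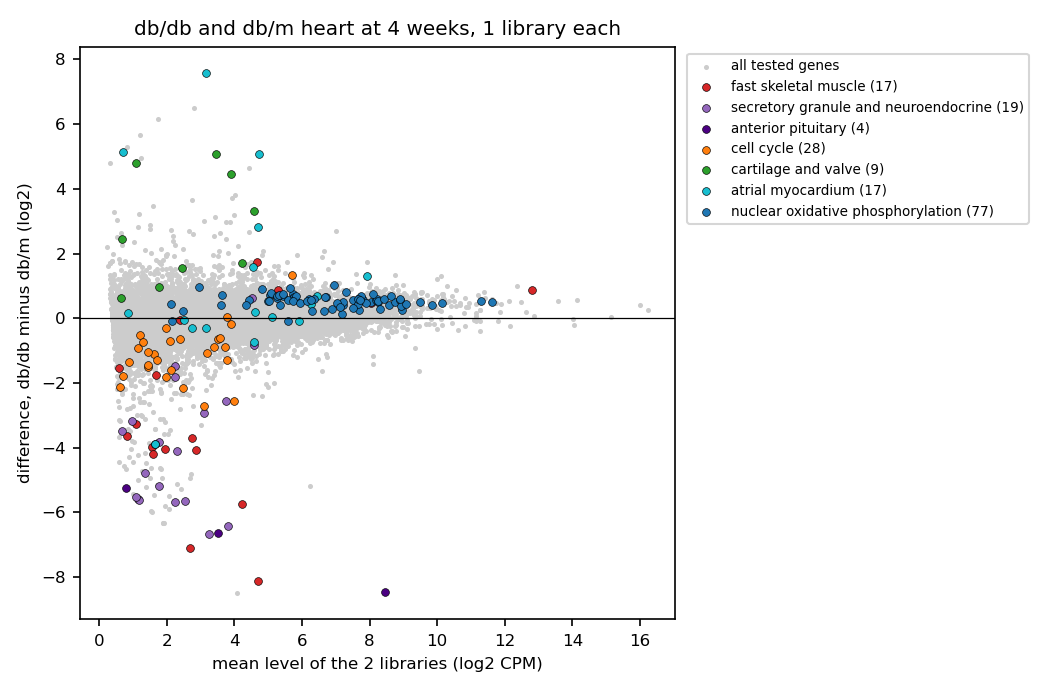
Each point is a gene with at least 50 counts over the 4-week pair, placed by its mean level (log2 CPM, horizontal) and by its difference (log2 of db/db over db/m, vertical), with 7 gene lists in colour and their numbers of tested members in the key. Fast skeletal muscle, pituitary, neuroendocrine and cell cycle genes lie mostly below 0, cartilage genes above 0, and the 77 nuclear oxidative phosphorylation genes form a band just above 0.

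**Figure D2:**
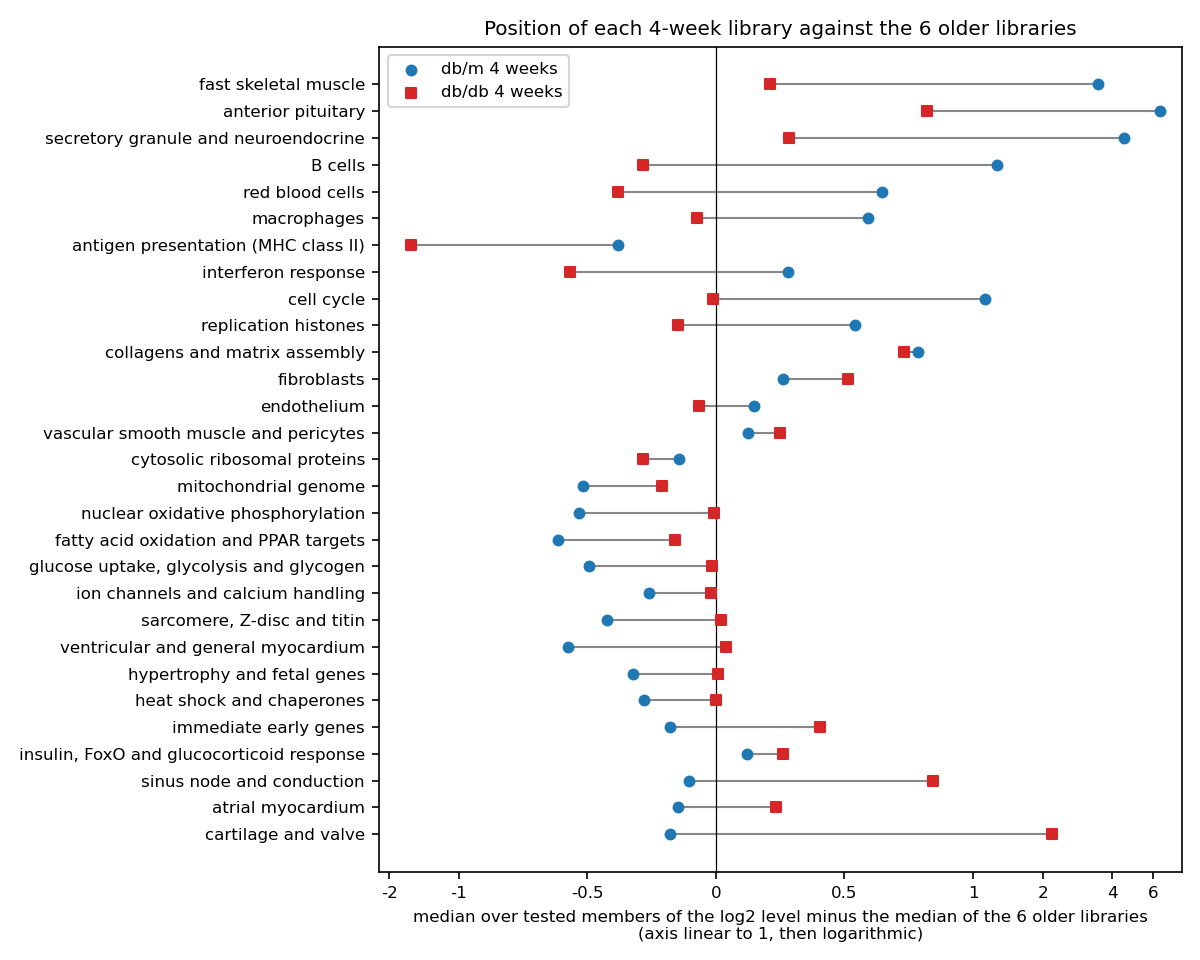
For each list, the circle (db/m) and the square (db/db) give the median over tested members of the log2 level at 4 weeks minus the median of the 6 older libraries, on an axis that is linear to 1 and logarithmic beyond. For nuclear oxidative phosphorylation the db/m circle is at -0.53 and the db/db square at -0.01, and for the cell cycle list they are at 1.12 and -0.01.

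The labels of both libraries were checked first. The defining genes of heart muscle were abundant in each, with 594104 counts of Myh6, the main cardiac myosin, in db/m and 812663 in db/db. The Y-linked genes Ddx3y, Uty, Kdm5d and Eif2s3y were not called different, and Xist had 12 and 7 counts. Lepr itself had 13.5 CPM (db/m) and 5.81 CPM (db/db) at 4 weeks, a level 2.32-fold lower in db/db (95% interval 1.86 to 2.91). At 12, 24 and 32 weeks Lepr stood at 4.30, 6.92 and 6.03 CPM in db/m and at 2.50, 4.21 and 6.23 in db/db. The counts join all splice forms of Lepr, so they do not check the genotype. Of the 11 tested genes of the leptin receptor and JAK-STAT list, Lepr was the only 1 called under TMM. With total counts 3 were lower and scaled to 18 myocardial genes 4, against 2060 and 2787 of all 13591 genes. Socs3, the feedback inhibitor of this signalling, had 99 db/m and 193 db/db counts with an interval of the fold from 1.15 to 1.90.

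Pituitary genes were found in the db/m library and hardly in any other, and several genes of secretory, nerve-like cells were far higher there. Gh, which encodes growth hormone and lies on chromosome 11 at 106300271 to 106301865 (GRCm38), had 11546 db/m and 41 db/db counts. In CPM, Gh stood at 698 in db/m at 4 weeks, 1.88 in db/db at 4 weeks and 0 to 1.98 in the older libraries, and the 4-week level was 372-fold higher in db/m (274 to 519). Pou1f1, the pituitary factor that drives Gh transcription, had 377 db/m and 3 db/db counts, a ratio of 166 (56.4 to 809). Lhx3, another pituitary factor, had 58 and 0 counts, at least 25.5-fold higher in db/m when 3 counts are taken as the floor of the empty library.

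The pituitary list of 22 genes, written after these values were seen, summed to 737 CPM in db/m at 4 weeks, 3.02 in db/db and 0.787 to 2.67 in the older libraries, nearly all of it Gh. The 4 members with enough counts were lower in db/db. The hormone genes of other pituitary cells were at 0 in both 4-week libraries (Prl, Tshb, Fshb and Cga), and Pomc had 3 and 0 counts. Among 31 genes of secretory granules and neuroendocrine cells, a list also written after the values were seen, 18 of 19 tested members were lower in db/db and 1, Rab3a, was higher, a tally that the choice of the list and the count minimum shape, since members such as Scg2 reached 50 counts through the db/m library alone. Their summed level was 228 CPM in db/m, 59.3 in db/db and 42.7 to 59.8 in the older libraries. Scg2, a granule protein, had 311 and 2 counts, Snap25, a fusion protein of secretory vesicles, 462 and 5, and Insm1, a transcription factor of endocrine cells, 190 and 3. How RNA of this kind entered the db/m library was not tested.

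Fast skeletal muscle genes followed the same pattern. Of 24 genes, 17 had enough counts, 12 of these were lower in db/db, 3 were higher, and the median difference was -3.65. Over all tested genes the median was 0.04. Members such as Myh1 reached the count minimum through the db/m library alone, so the tally is a description. Myh4, the fastest myosin heavy chain of limb muscle, had 864 db/m and 2 db/db counts, a ratio of 571 (158 to 4720), although 30.4% of its 31-base stretches occur in other myosin genes, so some reads can belong to Myh1 or Myh2. Atp2a1, the calcium pump of fast fibres, stood at 37.2 CPM (db/m) and 0.595 CPM (db/db) at 4 weeks and at 0.367 to 0.787 in the older libraries. Ryr1, the calcium release channel of skeletal muscle, had 227 and 16 counts, and Pvalb, a calcium buffer of fast fibres, 123 and 8. For 12 of 17 members the db/m library was above all 6 older libraries, although Ryr1 also reached 6.14 CPM in db/db at 12 weeks.

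The 3 members that were higher in db/db were Mb, the oxygen store of red muscle and heart, with 82807 db/m and 202179 db/db counts, Casq1 with 191 and 851, and Mybpc2 with 463 and 1112. The summed level of the list without Mb was 432 CPM in db/m, 407 in db/db and 308 to 444 in the older libraries, so the sum hardly separated the libraries while its defining members Myh1, Myh4 and Atp2a1 did. Myod1 and Pax7, which mark muscle precursor cells, had at most 3 counts in either library. The part of dissection in these differences was not tested.

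**Figure D3:**
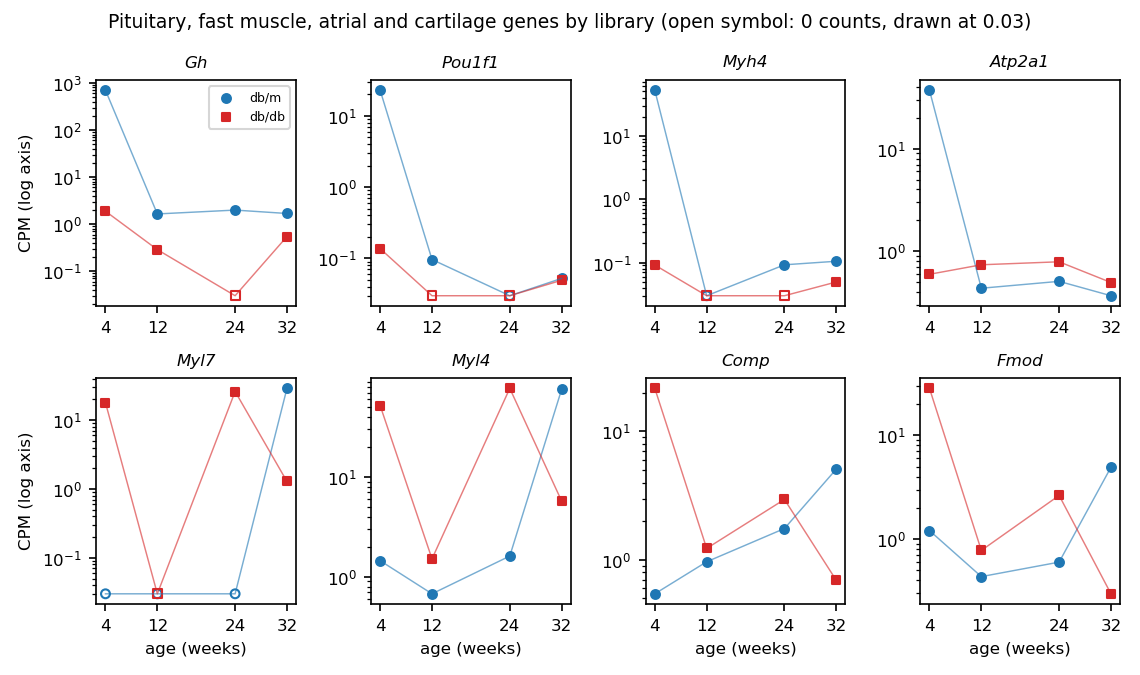
Levels in CPM (log axis) of 8 genes at 4, 12, 24 and 32 weeks, with circles for db/m and squares for db/db, 1 library each, and open symbols at 0.03 for libraries without a count. Gh, Pou1f1, Myh4 and Atp2a1 peak in db/m at 4 weeks, Comp and Fmod in db/db at 4 weeks, and Myl7 and Myl4 are high in db/db at 4 and 24 weeks and in db/m at 32 weeks.

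Some atrial genes and 5 of 8 tested conduction genes were higher in the db/db library. Myl7, the atrial regulatory light chain, had 0 db/m and 392 db/db counts, at least 98.9-fold higher. Its levels in the older libraries were 0, 0 and 29.0 CPM in db/m and 0, 26.1 and 1.29 CPM in db/db, so db/db had more Myl7 RNA at 4 and 24 weeks, db/m had more at 32 weeks and neither had any at 12 weeks. Myl4, the atrial essential light chain, had 24 and 1133 counts (35.7-fold higher in db/db, 23.9 to 56.0), and Sln, which inhibits the calcium pump in atria, had 0 and 71. Of 17 tested atrial genes 7 were higher and 2 lower, with a median of 0.20 that became 0.00 with total counts and -0.10 when libraries were scaled to 18 myocardial genes. The tally is a description, since Myl7 and Sln, among others, reached the count minimum through the db/db library alone. Differences in Myl7 were 8.12 at 24 weeks and -4.40 at 32 weeks, and those in Myl4 were 5.50 and -3.69. Bmp10, a defining atrial gene, was at 0 in both libraries, and Nppa, the atrial natriuretic peptide, was not called, with 1079 and 1924 counts. The summed level of the 19 atrial genes was 470 CPM (db/m) and 851 CPM (db/db), against 629 to 1273 in the older libraries. The share of atrium in each sample was not tested.

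Of 8 tested genes of the sinus node and conduction system 5 were higher in db/db and none was lower, with a median of 0.86. One of the higher genes, Cpne5 (7 db/m and 123 db/db counts), reached the count minimum through the db/db library alone, so the tally is a description. Cntn2, which marks the Purkinje network, had 50 db/m and 623 db/db counts (9.43-fold higher, 7.06 to 12.8). Hcn4, the pacemaker channel, had 79 and 264, and Cacna1g, a T-type calcium channel, 458 and 1208. Of the node markers Tbx3 was higher (368 and 804 counts), and Shox2 and Tbx18 were not called. The median of the list was 0.07, 0.90 and 0.09 in the pairs of 12, 24 and 32 weeks, and Cntn2 was also higher in db/db at 24 and 32 weeks, with differences of 2.02 and 1.77.

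Cartilage and valve genes had the highest median of all lists. Of 9 tested members 8 were higher, 7 of them by more than in any older pair, with a median of 2.46 under TMM and 2.20 to 2.46 under the other scalings. Members such as Comp and Chad reached the count minimum through the db/db library alone, so the tally is a description, and with at least 10 counts 9 of 11 were higher and 1 lower, with a median of 2.06. Comp, a matrix protein of cartilage and tendon, had 9 db/m and 473 db/db counts (39.8-fold higher, 20.8 to 87.5). Its level of 21.6 CPM in db/db at 4 weeks exceeded the range of 0.692 to 5.09 in the older libraries. Fmod, which binds collagen fibrils, had 20 and 622 counts, Thbs4 of the tendon matrix 71 and 960, and Acan, the main proteoglycan of cartilage, 7 and 60. Chad, a cartilage matrix protein, had 1 and 92, a ratio of 69.6 (12.2 to 2780). Scx, the tendon factor, was not called, and Col2a1, the collagen of true cartilage, had 25 db/m and 4 db/db counts. The summed level of the 11 genes was 23.0 CPM in db/m, 145 in db/db and 17.3 to 65.9 in the older libraries.

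Outside these lists, Wif1, an inhibitor of Wnt ligands, had 30 and 334 counts, Angptl7, a secreted protein of the angiopoietin-like family, 49 and 527, and Prg4, the lubricin of joint surfaces, 36 and 428. Angptl7 stood at 24.1 CPM in db/db at 4 weeks and at most at 2.96 in the other 7 libraries. How much valve or vessel root each sample contained was not tested, and in whole tissue more cells of a type and more RNA per cell cannot be told apart.

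Many genes of heart muscle and its energy supply had small positive differences, and their number called depended on scaling. Of 77 tested nuclear genes of oxidative phosphorylation 31 were higher and none was lower, and 30 of the 31 differed by more than in every older pair. The median was 0.55, against 0.22, 0.09 and -0.13 at 12, 24 and 32 weeks. Uqcr10, a subunit of complex III, stood at 81.3 CPM (db/m) and 165 CPM (db/db) at 4 weeks, while db/m ran from 106 to 139 and db/db from 94.7 to 175 at the older ages. Ndufc2 of complex I was 1.87-fold higher in db/db (1.64 to 2.13) and Ndufa4 1.75-fold higher (1.66 to 1.85). The 13 genes of the mitochondrial genome had a median of 0.31, and none was called. Their median was 0.11 with total counts and 0.01 when scaled to 18 myocardial genes. With total counts, under which 655 of all 13591 genes were higher, 5 of the 77 nuclear genes were higher and the median was 0.36, and scaled to 18 myocardial genes 4 were higher with a median of 0.26. The db/m library lay below all 6 older libraries for 69 of the 77 genes, and the db/db library for 4.

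Fatty acid oxidation gave 14 of 35 genes higher and none lower, with a median of 0.48, and 2 genes higher with total counts. Slc25a20, which carries acylcarnitines into mitochondria, stood at 88.9 CPM (db/m) and 174 CPM (db/db) at 4 weeks, while the pairs of 12, 24 and 32 weeks had 167 and 274, 167 and 236, and 129 and 195. The db/db library was thus higher at all 4 ages. Fabp3, the fatty acid binding protein of heart, shares 37.3% of its 31-base stretches with other genes and was 1.70-fold higher (1.66 to 1.73) at 4 weeks and also higher at each older age. Acadm, the medium-chain dehydrogenase, was 1.69-fold higher (1.64 to 1.73), Ehhadh, a peroxisomal enzyme, 1.94-fold higher (1.64 to 2.29), and Plin5, which coats lipid droplets, had 1585 and 3456 counts. Other members of the list were not called, among them Pdk4, the kinase that restrains pyruvate oxidation, with 36555 and 50380 counts and Ucp3 with 1624 and 2703. The median of the list was 0.48, 0.07 and 0.48 in the pairs of 12, 24 and 32 weeks.

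Of 32 genes of glucose uptake, glycolysis and glycogen 8 were higher and none was lower, with a median of 0.46, and with total counts 4 were higher and 1 lower. Scaled to 18 myocardial genes 2 were higher and 3 lower, with a median of 0.16. Hk1, a hexokinase, was 1.97-fold higher (1.85 to 2.10), Gys1, the glycogen synthase of muscle, 1.75-fold higher (1.64 to 1.87), and Ppp1r3c, which targets a phosphatase to glycogen, 2.14-fold higher (1.99 to 2.29). Slc2a4, the insulin-sensitive glucose transporter, had 4065 and 7033 counts and was not called. Of 26 tested genes of lipid and cholesterol synthesis 2 were higher and 1 lower, against 9.49% and 9.09% of all genes. Scaled to myocardial genes 1 was higher and 4 lower, against 473 and 2787 of all 13591 genes. Scd1, a desaturase, was higher with 380 and 1007 counts, and Elovl6, an elongase, was lower with 39 and 13.

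In the list of 18 ventricular and general myocardial genes 10 were higher and none lower, with a median of 0.60, and all 10 exceeded their older differences. Actc1, the cardiac actin, was 1.97-fold higher (1.95 to 1.99), with 3546 CPM in db/m, 6994 in db/db and 6003 to 8247 in the older libraries. Tnnc1, a troponin, was 1.98-fold higher (1.95 to 2.02), Gata4, a cardiac transcription factor, 1.82-fold higher (1.68 to 1.97) and Hand2 of the same class 3.33-fold higher (2.82 to 3.95). Ttn, the giant spring protein, had 1157490 and 1816300 counts (difference of 0.25), and it and Myh6 (difference of 0.05) were not called. In the sarcomere list 14 of 31 were higher and 1, Neb, was lower, with a median of 0.56. Neb encodes nebulin, a thin filament protein most abundant in skeletal muscle, and had 550 and 277 counts. With total counts 4 of the 18 myocardial and 5 of the 31 sarcomere genes were higher. Scaled to the 18 myocardial genes, 2 of the 31 sarcomere genes were higher and 3 lower, with a median of 0.26.

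Ion channel and calcium genes gave 8 of 30 higher and none lower, with a median of 0.45, and 4 higher and 2 lower with total counts. Casq2, the calcium store protein of the heart, was 2.05-fold higher (1.99 to 2.12), and Kcne1, a potassium channel subunit, 2.22-fold higher (1.96 to 2.51). Kcne1 was lower in db/db at 12 weeks, with a difference of -1.30. In the list of hypertrophy and fetal genes 7 of 16 were higher and none lower, with a median of 0.50. With total counts 4 were higher, and scaled to 18 myocardial genes 1 was higher and 2 were lower. Xirp2, an actin-binding protein of intercalated discs, stood at 634 CPM (db/m) and 1573 CPM (db/db) against 1029 to 2407 in the older libraries. Acta1, the skeletal actin re-expressed under load, was 1.75-fold higher (1.68 to 1.83), whereas Nppb (555 and 593 counts) and Myh7 (14759 and 28734) were not called.

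**Figure D4:**
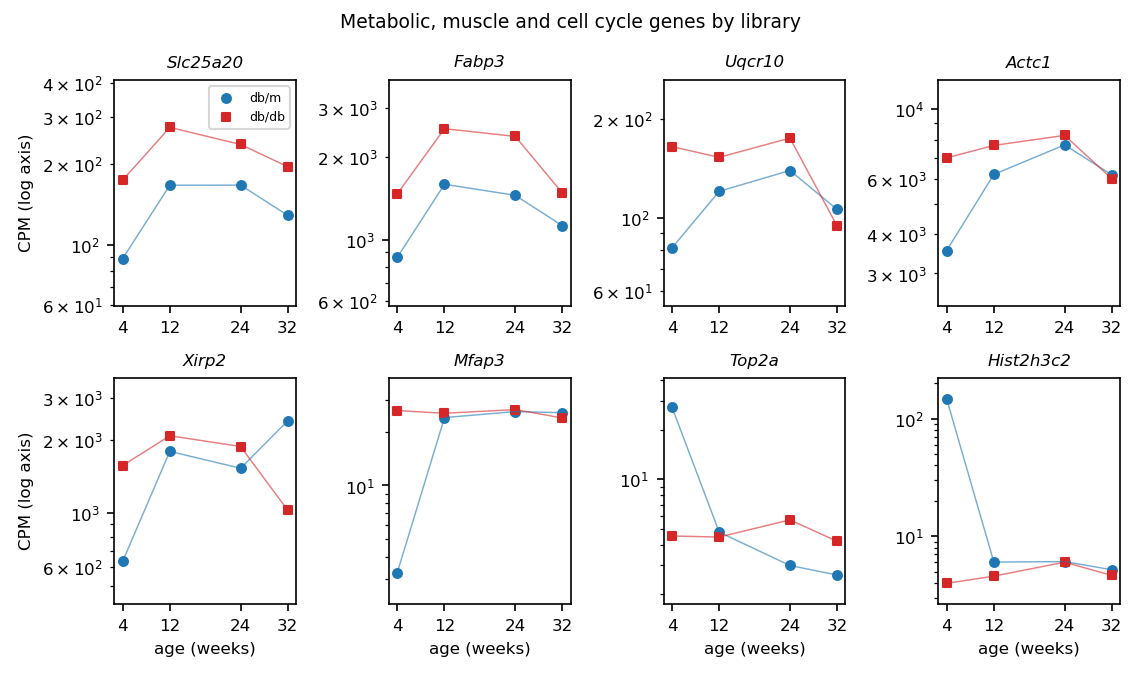
Levels in CPM (log axis) of 8 genes at 4, 12, 24 and 32 weeks, circles for db/m and squares for db/db, 1 library each. In db/m at 4 weeks Uqcr10, Actc1, Xirp2 and Mfap3 are at their lowest and Top2a and Hist2h3c2 at their highest of the 8 libraries, and Slc25a20 and Fabp3 are higher in db/db at every age.

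Cell cycle genes were lower in db/db. Of 28 tested members 23 were lower, 21 of them by more than in each older pair, and 1, the cell cycle inhibitor Cdkn1a, was higher. The median was -1.06 under TMM, -1.26 with total counts and -1.36 scaled to myocardial genes. It was -0.16, 0.15 and -0.02 at 12, 24 and 32 weeks. Mcm5, a subunit of the replicative helicase, had 250 db/m and 49 db/db counts (6.74-fold lower in db/db, 4.95 to 9.35), and its 15.1 CPM in db/m exceeded the 2.24 to 3.58 of the other 7 libraries. Top2a, the topoisomerase of dividing cells, had 453 and 99, Kif11, a spindle motor, 151 and 43, and Plk1, a mitotic kinase, 42 and 11. Mki67, the usual proliferation marker, had 285 and 200, and Pcna, which also serves in repair, 225 and 308. The db/m library stood above all 6 older libraries for 24 of the 28 genes and below them for 2. The db/db library, with a median position of -0.01, stood below them for 6 genes and above them for 2. The kind of cell that divided cannot be told from whole tissue.

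Promoters of late cell cycle genes often hold CCAAT boxes and a CHR element (cell cycle genes homology region), read by the NF-Y and DREAM or MuvB complexes. The letters CCAAT and TTTGAA were searched on both strands in RefSeq windows of 250 bases before to 50 after the start (GRCm38.p6). Of the 21 tested members with a window 18 held CCAAT and 11 held TTTGAA (16 and 10 of the 18 lower members), against 37.9% and 18.1% of 27025 windows of all genes. The stretches below hold these letters, in capitals on either strand, for 3 genes with large differences, Kif11 (chr19:37376322-37376383, plus strand), Plk1 (chr7:122159406-122159484, plus strand) and Mcm5 (chr8:75109417-75109534, plus strand). Kif11 and Plk1 hold both elements and Mcm5 holds CCAAT 3 times. A match in letters does not show that a factor binds.
Kif11: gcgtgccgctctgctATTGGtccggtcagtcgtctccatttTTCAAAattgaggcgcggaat
Plk1: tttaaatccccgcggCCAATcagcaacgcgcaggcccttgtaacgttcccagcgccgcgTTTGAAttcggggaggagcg
Mcm5: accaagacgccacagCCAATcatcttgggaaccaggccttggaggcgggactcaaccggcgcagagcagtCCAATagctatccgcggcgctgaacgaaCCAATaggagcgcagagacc

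Replication-dependent histone genes gave 6 of 11 lower and 1 higher, with a median of -0.69. Hist1h1b, a linker histone, had 54 and 18 counts, and Hist1h4h had 220 and 517. Many of these genes are near-identical copies, and their reads are uncertain.

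Genes of blood and immune cells were mostly lower in db/db. Of 35 tested interferon response genes 21 were lower and none was higher, with a median of -0.77. The medians at the older ages were -0.87, 3.04 and 0.59, and of the 21 lower genes 1, Oasl2, differed by more at 4 weeks than in each older pair. Gbp3, a guanylate-binding protein, had 509 db/m and 232 db/db counts (2.90-fold lower in db/db, 2.48 to 3.40), Ifi44 165 and 56, and Usp18, which restrains the interferon receptor, 105 and 50. Stat2, a transducer of the signal, was not called, with 565 and 582 counts. The list summed to 554 CPM (db/m) and 333 CPM (db/db) at 4 weeks, within the 324 to 7929 of the older libraries.

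Interferon-stimulated genes carry the ISRE, a site for STAT and IRF factors here searched as a pair of GAAA blocks with 2 free bases between them. It was found on either strand in 14 of the 25 tested members with a promoter window, 8 of them among the 16 lower genes, and in 3.49% of all windows. Gbp3 (chr3:142559984-142560029, plus strand), Ifit3 (chr19:34583358-34583431, plus strand) and Ifit1 (chr19:34640770-34640828, plus strand) are shown with the matches in capitals, as 3 of the lower members that held it.
Gbp3: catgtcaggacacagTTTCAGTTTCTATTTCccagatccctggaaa
Ifit3: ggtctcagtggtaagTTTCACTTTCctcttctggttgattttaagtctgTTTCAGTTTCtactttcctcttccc
Ifit1: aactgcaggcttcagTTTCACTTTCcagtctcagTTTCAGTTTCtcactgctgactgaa
Ifit3 and Ifit1 hold the core 2 times each, and Gbp3 holds it 2 times in overlap. Ifit3 had 194 and 108 counts and Ifit1 179 and 106.

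All 6 tested genes of MHC class II antigen presentation were lower, with a median of -1.02. Cd74, the invariant chain, had 835 and 611 counts, H2-Aa 176 and 115, and Ciita, the transactivator of the class, 41 and 18. The db/db library was below all 6 older libraries for these 6 genes and the db/m library for 3, and neither was above them for any of the 6. Of 16 macrophage genes 10 were lower and 1, Lyve1 of resident macrophages, was higher (161 and 369 counts). Ccr2, the receptor of recruited monocytes, had 72 and 14 counts (6.79-fold lower in db/db, 3.80 to 13.0), Cx3cr1 167 and 82, and Adgre1, which encodes F4/80, 272 and 154. Csf1r, with 1386 and 1212, was just past the fold that was asked for.

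Both tested B cell genes were lower, Ighm with 162 and 85 counts and Ighd with 46 and 16. Of 8 genes of red blood cells 6 were lower, the most abundant being the beta globin gene Hbb-bs with 6334 and 3706. The globin copies share over 50% of their 31-base stretches and are read as 1 group. The summed level of the red cell list was 594 CPM (db/m) and 280 CPM (db/db) at 4 weeks and ran from 78.6 to 536 in the older libraries. No neutrophil or airway gene reached 50 counts over the pair. How much blood was left in each heart was not tested.

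**Figure D5:**
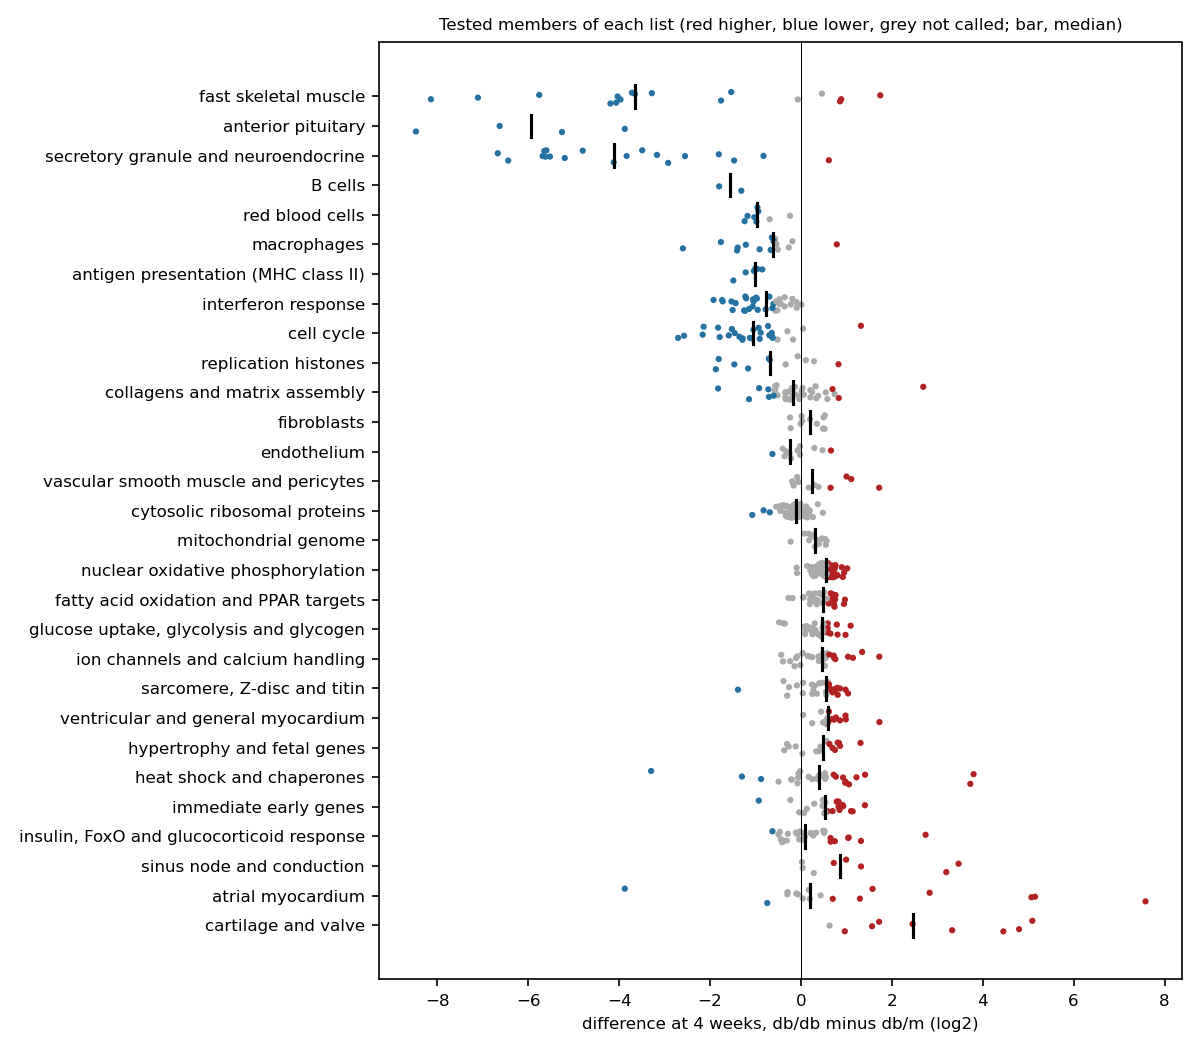
Each point is a tested member of a list, placed by its difference at 4 weeks (log2 of db/db over db/m), red where called higher, blue where called lower and grey where not called, and the bar is the list's median. Medians run from -5.94 for the pituitary list to 2.46 for cartilage and valve, and the medians of the mitochondrial genome, oxidative phosphorylation, fatty acid, glucose, sarcomere and myocardium lists lie between 0.31 and 0.60.

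Stress and hormone responses were mixed. Of 30 heat shock and chaperone genes 10 were higher and 3 lower, with a median of 0.40. The inducible chaperones Hspa1a (35 and 670 counts) and Hspa1b (34 and 620) share 65.4% and 68.0% of their 31-base stretches, mostly with each other, and their differences of 3.80 and 3.73 at 4 weeks were -6.50 and -6.59 at 32 weeks. Hspb7, a small chaperone of heart muscle, was 2.33-fold higher (2.28 to 2.39). Asns, the asparagine synthetase induced by amino acid shortage, had 244 db/m and 31 db/db counts (10.4-fold lower in db/db, 7.14 to 15.6). Among related stress genes, Atf4 (972 and 1119 counts), Ddit3 (154 and 195) and Trib3 (44 and 55) were not called, and Chac1 (207 and 110) was lower.

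Immediate early genes gave 12 of 25 higher and 1, Fosb, lower, with a median of 0.54. With total counts 10 were higher, and scaled to myocardial genes 5, with a median of 0.25. Egr1 had 300 and 750 counts and Klf2 460 and 1307. Of the 13 called members 2, Jun and Klf4, exceeded their older differences, and the median of the list was 1.02, 0.32 and -0.87 in the pairs of 12, 24 and 32 weeks. Among 29 genes of insulin, FoxO and glucocorticoid response 7 were higher and 1 lower, with a median of 0.08 that was -0.11 with total counts, under which 4 were higher and 5 lower. Scaled to myocardial genes 4 were higher and 7 lower. Of all 13591 genes, 2060 were lower with total counts and 2787 when scaled to myocardial genes. The higher members included Ddit4, an inhibitor of mTORC1 induced by glucocorticoids (731 and 2001 counts), Fkbp5, a cofactor of the glucocorticoid receptor (972 and 2021), Mt2, a metallothionein (362 and 987), and Lcn2, a secreted lipocalin (11 and 109, 7.50-fold higher, 4.03 to 15.5). None of the 8 called members differed by more than in each older pair. The receptors Insr, Igf1r and Nr3c1 and the atrophy ligases Trim63 and Fbxo32 were not called.

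Of 26 tested genes of oxidative and metal stress 5 were higher and 2 lower, with a median of 0.29. Scaled to myocardial genes 2 were higher and 3 lower, with a median of -0.01. Tfrc, which takes up iron-loaded transferrin, stood at 43.7 CPM (db/m) and 111 CPM (db/db), and was higher in db/db at each older age. Hmox1, heme oxygenase, had 525 and 290 counts (2.39-fold lower in db/db, 2.07 to 2.77), and Gpx3, the secreted glutathione peroxidase, 1215 and 899. Gpx4, which detoxifies lipid peroxides, was not called, with 853 and 1599.

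Retinol metabolism, the subject of the study, gave 1 of 17 tested genes higher and 3 lower at 4 weeks, with a median of 0.02. Over all genes 9.49% were higher and 9.09% lower. Scaled to myocardial genes, none of the 17 was higher and 4 were lower, with a median of -0.28. Rxrg, a retinoid X receptor, had 441 and 1029 counts. Cyp26b1, which breaks down retinoic acid, had 379 and 188 (2.66-fold lower in db/db, 2.23 to 3.19), yet was higher in db/db at each older age. Lrat, which esterifies retinol for storage, had 72 and 10, and Adh1, an alcohol dehydrogenase, 756 and 629. In db/m at 4 weeks Lrat stood at 4.35 CPM, against 0.0989 to 0.869 in all other libraries. In the clock list 2 of 20 genes were higher and 2 lower, a share like the 9.49% and 9.09% of all genes. Scaled to myocardial genes 1 was higher and 5 lower, against 473 and 2787 of all 13591 genes. Nfil3, a repressor of clock outputs, had 92 and 317 counts, and Per3 had 1912 and 1489.

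Supporting tissues gave calls in both directions, to be read beside the 9.49% higher and 9.09% lower of all genes. Of all 13591 genes, 2060 were lower with total counts and 2787 when scaled to myocardial genes. None of 11 fibroblast genes was called, with a median of 0.20 that was 0.01 with total counts and -0.09 when scaled to myocardial genes. Of 39 collagen and matrix genes 3 were higher and 6 lower, with a median of -0.17, while total counts gave 2 and 11 and scaling to myocardial genes 1 and 14. Both young hearts stood above the older ones in this list, db/m for 24 and db/db for 22 of the 39 genes. Col3a1, a fibrillar collagen, had 14094 and 9843 counts, Tnc, a matrix protein of remodelling tissue, 242 and 89, and Thbs1, which activates TGF-beta, 572 and 4891. Of 14 endothelial genes 1 was higher and 1 lower, while total counts gave 0 and 2 and scaling to myocardial genes 0 and 5. In vascular smooth muscle 4 of 12 were higher, among them Myh11 (847 and 2244 counts) and Tagln (353 and 1007), with a median of 0.24 that was -0.06 when scaled to myocardial genes. The white fat genes Lep (0 and 23 counts), Plin1 (3 and 22) and Adipoq (6 and 22) had too few counts to be tested, as had Cfd (18 and 12) and Retn (3 and 1), and of 6 tested fat genes 1, Cidea, was higher. Among these 6, total counts gave none higher and 1 lower, and scaling to myocardial genes none higher and 2 lower. With at least 10 counts 6 of 12 fat genes were higher and none lower, and the median of -0.08 became 0.37.

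The remaining lists had few tested members, other than the ribosomal list. Of 49 cytosolic ribosomal protein genes 3 were lower, with a median of -0.10, while 6 were lower with total counts and 12 when scaled to myocardial genes. Under these scalings 2060 and 2787 of all 13591 genes were lower. Of 6 nerve and Schwann cell genes 2 were higher and 1 lower, of 4 T cell genes 1 each way, of 2 liver genes 1 was higher and of 4 abundant non-coding RNAs 1 was higher. Among 3 tested genes of epicardium and mesothelium 1 was lower, Krt8, an epithelial keratin, with 104 db/m and 14 db/db counts and 6.28 CPM in db/m against 0.0461 to 0.682 in the older libraries.

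The fit across all 8 libraries singled out few genes. Hist2h3c2, a histone H3 gene on chromosome 3 at 96238108 to 96239127, was the gene that passed edgeR's test, with a 4-week effect of -5.21 and an adjusted p of 0.0466. No gene passed when libraries were scaled by total counts, or without the 12-week or the 32-week pair. Its level was 147 CPM in db/m at 4 weeks, 3.98 in db/db and 4.58 to 6.09 in the older libraries. It shares 64.2% of its 31-base stretches with other H3 genes and a predicted gene, so the source of its reads is uncertain. Mfap3, a microfibril-associated protein, was higher in db/db, with an effect of 3.00 and an adjusted p of 0.159 in edgeR and 5.8e-10 in DESeq2, and stood at 3.26 CPM in db/m at 4 weeks and at 23.8 to 26.5 in the other 7 libraries.

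Pou2f1, the factor Oct-1, had 192 and 979 counts (adjusted p = 0.473 in edgeR and 2.6e-05 by the Wald test of DESeq2), and Eif4e, the cap-binding protein of translation, 391 and 2003 (adjusted p = 0.515 in edgeR and 4.7e-06 in DESeq2). Bdh1, a ketone-body dehydrogenase, had 79 and 399 counts (adjusted p = 0.542 in edgeR and 0.000527 in DESeq2). Its level was 4.77 CPM (db/m) and 18.2 CPM (db/db) at 4 weeks and 30.5 to 94.6 in the older libraries, so both young hearts were low. Fam102b had 809 and 258 counts, and its 11.8 CPM in db/db at 4 weeks was the lowest of the 8 libraries, which otherwise ran from 29.4 to 48.9. Efnb3, an ephrin ligand, was higher in db/db at all 4 ages, with 929 and 3524 counts at 4 weeks.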

How the data were processed

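RNA was extracted from mouse hearts and rRNA-depleted, strand-specific libraries were sequenced. The authors deposited raw counts of reads per gene as whole numbers, and FPKM values, which were not used. The submitters' processing notes name HISAT2, StringTie 1.3.0 and the builds GRCm38 and mm10. Whether counting used strand is not given in the sources used here. The tests used edgeR 4.0.16 under R 4.3.3 (TMM and quasi-likelihood fits with 2 residual degrees of freedom, genes kept by filterByExpr, Benjamini-Hochberg adjustment) and DESeq2 1.42.0. Intervals of folds were exact (Clopper-Pearson, 95%), from counts of 14445436 and 21836468, and cover counting error only. Floors were 3 counts. Scripts were tested on simulated data. Python 3.11.15 drew figures and compared stretches of 31 bases between GENCODE vM21 transcripts. Promoters came from RefSeq.

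The gene lists and tests were chosen with earlier results of these data known, and the pituitary and neuroendocrine lists were added after their values were seen. Genes were named by a rule: in each list up to 6 members with the largest differences among those with 50 counts over the pair, any member of a list of at most 12, the 12 higher and 12 lower called genes with at least 200 counts and the largest differences, the 10 each way of these with the largest excess over the older pairs, the 5 each way with the smallest p in the fit, and Lepr and the sex check. Other genes were named after their values were seen. Alternatives were other scalings, count minimums, folds, interval rules, priors, filters and designs. Some members of the lists are not reported here by name.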

Additional observations from a re-analysis of the deposited data

How the results depend on the processing

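The number of genes called moved with scaling and with the fold asked for. Against 1290 higher and 1235 lower, total counts gave 655 and 2060, and scaling to 18 myocardial genes, chosen after seeing the data, gave 473 and 2787. A fold of at least 2 gave 379 and 540, and at least 200 counts over the pair gave 932 and 553, and at least 10 counts 1485 and 1720. For the 4-week effect, with 1 call by edgeR, total counts and age as a linear number gave 0, the Wald test of DESeq2 gave 37, and leaving out 1 older pair gave 0 (without the 12-week or the 32-week pair) to 2 (without the 24-week pair). For the 4-week effect minus the older effect DESeq2 gave 18 calls against 0. Genes beyond the older pairs numbered 1664 to 1848 with 1 older pair left out, against 1564. Libraries could be paired only by equal age, as in the age block of the edgeR fit. Each genotype and age has 1 library and the labels carry no replicate number. With 1 library per genotype, differences between mice and between dissections cannot be told apart from genotype at 4 weeks.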
